A study of Mus musculus with 6 samples.

Results

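The genes described here encode the C-type lectin-like receptors of NK cells other than the Ly49 family: the NKG2 chains (Klrc1, Klrc2 and Klrc3), their partner CD94 (Klrd1), NKG2D (Klrk1), the NKR-P1 receptors (Klrb1a, Klrb1b, Klrb1c and Klrb1f) and KLRG1 (Klrg1). They are a list of 10 names out of 25690 gene symbols in the deposited tables, and all 10 passed the filter on low counts. RNA was sequenced from CD27SP NK cells, which stand early in NK maturation, after a sort of BM for NK1.1+ CD27+ cells without CD11b or CD3. The 3 control libraries came from Ncr1cre Myc wt/wt mice and the 3 Myc-deficient libraries from Ncr1cre Myc fl/fl mice, and both genotypes carry the replicate numbers 1, 2 and 4. All mice of both genotypes carry Ncr1cre, in which Cre is made from the gene of NKp46, so that the floxed Myc alleles are deleted once a cell expresses Ncr1 and a sorted population can include cells that have only begun to do so. Per the methods of the study, the mice were matched for sex and age. The labels do not say whether each library is a separate mouse, so p-values measure the spread between these libraries. The comparison asks how loss of Myc changed the transcripts of these receptors in immature NK cells.

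NK cells weigh inhibitory against activating signals from surface receptors. NKG2A, the product of Klrc1, pairs with CD94 and binds the non-classical MHC molecule Qa-1, and it carries a cytoplasmic ITIM, a short tyrosine motif that recruits phosphatases. NKG2C and NKG2E, the products of Klrc2 and Klrc3, also pair with CD94 but lack the motif and signal through adaptors. NKG2D binds stress-induced ligands and signals through the adaptors DAP10 and DAP12. Among the NKR-P1 receptors, NKR-P1B is inhibitory, whereas NKR-P1C is the activating antigen NK1.1, and several of them bind Clr proteins of the Clec2 family. KLRG1 is an inhibitory receptor for cadherins that is known as a marker of late NK cell maturation.

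The members lie in the NK gene complex on chromosome 6 and its neighbourhood (GRCm38), from Klrg1 at chr6:122270596-122282882 to Klrc1 at chr6:129666015-129678973. The ITIM of the inhibitory members is encoded in their first exon. Below are the first 36 coding bases of the 3 genes that hold an ITIM there, with its 6 codons in capitals, and of Klrc2 for comparison, each read from the GENCODE M21 transcript that leads the coding counts of its gene and lies on the minus strand.
Klrc1-201: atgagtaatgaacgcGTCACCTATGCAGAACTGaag
Klrb1b-201: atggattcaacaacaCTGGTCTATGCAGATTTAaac
Klrg1-201: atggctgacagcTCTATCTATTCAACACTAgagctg
Klrc2-205: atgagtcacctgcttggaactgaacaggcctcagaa
These stretches lie at chr6:129678875-129678910, chr6:128826211-128826246, chr6:122282776-122282811 and chr6:129660521-129660556. The ITIM took codons 6 to 11 in Klrc1 and Klrb1b and codons 5 to 10 in Klrg1. The 36 bases of Klrc2 are identical to those of Klrc3, and neither has the motif there. Matches to the same pattern further inside the coding sequence occurred in Klrc2, Klrk1, Klrb1c and Klrg1, and are descriptions of letters only.

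The close likeness of these genes limits how well reads can be assigned. Identity was counted over alignments of the leading coding sequences, with gap positions counted as differences. It was 77.6% for Klrc1 and Klrc3, 75.0% for Klrc2 and Klrc3, and 81.4% for Klrb1a and Klrb1b. These sequences differ in length, with 206 codons in Klrc2 and 221 in Klrc3, so gaps lower the values. They do not rank the pairs by the likeness of their aligned bases. Of the 31-base words in the leading coding transcript, 54.5% in Klrc1, 39.9% in Klrc2 and 58.1% in Klrc3 also occurred in another NKG2 gene. The shares were 18.9%, 31.9% and 20.0% in Klrb1a, Klrb1b and Klrb1c, and at most 0.4% in Klrb1f, Klrd1, Klrk1 and Klrg1. Values of the single NKG2 genes and of Klrb1a, Klrb1b and Klrb1c are therefore less certain than those of the other members, and the sums over close copies are given as well.

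The libraries held between 54550907 and 64962491 estimated counts, except for Ncr1cre Myc wt/wt replicate 1 with 8101219. Myc itself measured 201, 183 and 164 CPM (counts scaled to a common library total, with TMM factors) in Ncr1cre Myc wt/wt replicates 1, 2 and 4, and 61.5, 64.6 and 76.5 CPM in Ncr1cre Myc fl/fl replicates 1, 2 and 4. The genotypes did not overlap, and Myc was called lower at a log2 fold change of −1.44 ± 0.15 (SE, edgeR adjusted p = 0.00189). The remaining Myc reads show that the transcript was reduced rather than absent in the sorted populations. As these are bulk samples, fewer cells of a type and less RNA per cell cannot be told apart.

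The receptor transcripts were abundant in these immature NK cells. Together the 10 genes took 0.537% to 0.587% of all TPM (a level scaled for transcript length and library total) in the controls and 0.524% to 0.697% in the Myc-deficient libraries. On the TPM scale, Klrk1 had the highest level in Ncr1cre Myc wt/wt libraries (1647 ± 145, mean and SD, n = 3), followed by Klrb1c (1178 ± 22.4), Klrd1 (929 ± 58.3), Klrc1 (654 ± 47.1), Klrb1f (391 ± 22.3), Klrc2 (323 ± 43.7), Klrb1a (271 ± 20.4), Klrb1b (104 ± 6.68), Klrc3 (57.4 ± 2.34) and Klrg1 (21.7 ± 2.94). Neighbours in this order did not overlap between libraries, except for Klrc2 and Klrb1a. In Ncr1cre Myc fl/fl libraries the order of the means was the same down to Klrb1f, and Klrb1a (305 ± 67.9) stood above Klrc2 (294 ± 54.9), with overlapping libraries. There Klrk1 also overlapped with Klrb1c and Klrb1c with Klrd1. The transcripts of NKG2A thus exceeded those of NKG2C in every library, and the 2 rarest members, Klrc3 and Klrg1, kept their places.

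**Figure D1:**
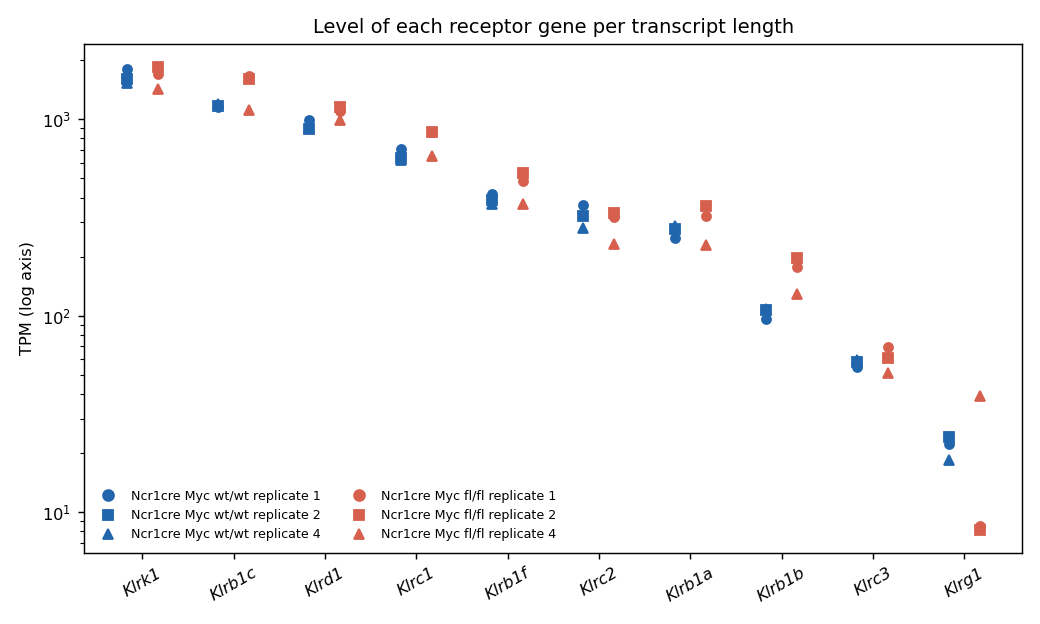
TPM of the 10 receptor genes on a log axis, ordered by the Ncr1cre Myc wt/wt mean, with blue symbols for Ncr1cre Myc wt/wt and red symbols for Ncr1cre Myc fl/fl libraries and 1 symbol per library. Levels run from 1647 TPM on average for Klrk1 to 21.7 TPM for Klrg1 in the control libraries, and Klrg1 is the gene with the widest spread among the Ncr1cre Myc fl/fl libraries.

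None of the 10 receptor genes passed the threshold, an edgeR adjusted p below 0.01 together with 0.5 or more on the log2 scale in either direction, against 2.15% of the 15474 genes tested. At an unadjusted p below 0.05 there was 1 member, Klrb1b, against 22.5% of all tested genes. Neither DESeq2 nor limma-trend called a member, against 7.71% and 1.71% of all tested genes. The median log2 fold change was 0.11 over the members and 0.01 over all genes, with 6 members above and 4 below 0. The 3 inhibitory members with an ITIM ranged from −0.73 to 0.62 and the 6 activating members from −0.23 to 0.23. The 95% intervals of 9 members included 0. For 8 members the interval lay within −1 and 1, so that a doubling or a loss of the same size was outside it, and the exceptions were Klrb1b and Klrg1. The genotypes did not overlap in CPM for 1 member, again Klrb1b, whereas 31.3% of all tested genes had genotypes that did not overlap.

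**Figure D2:**
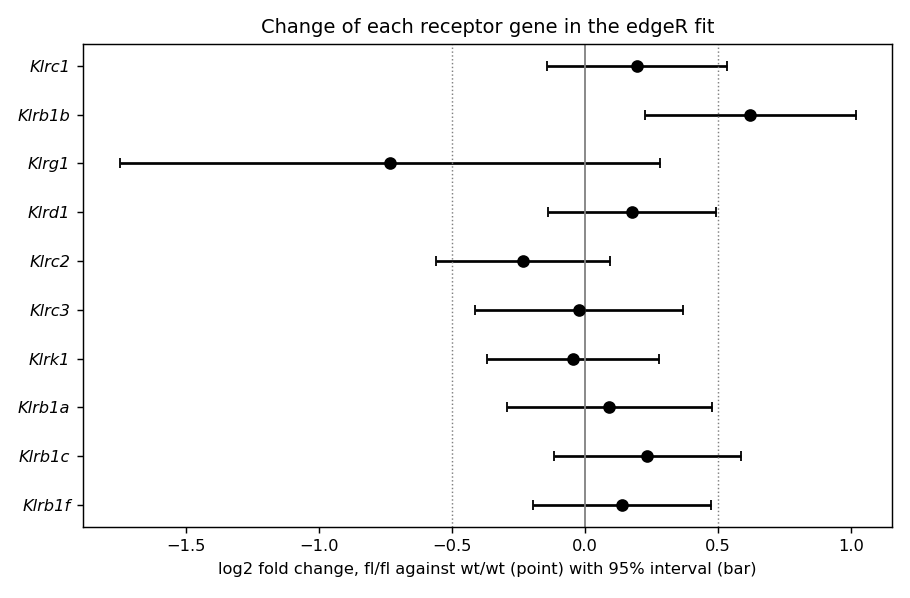
Log2 fold change of each receptor gene in Ncr1cre Myc fl/fl against Ncr1cre Myc wt/wt libraries from the edgeR fit, with 95% intervals as bars and dotted lines at the fold change limit of 0.5. The interval of Klrb1b (0.22 to 1.02) is the only one without 0, and that of Klrg1 (−1.75 to 0.28) is the widest.

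Klrc1, which encodes the inhibitory chain NKG2A, measured 963, 795 and 853 CPM in Ncr1cre Myc wt/wt replicates 1, 2 and 4 and 1075, 1124 and 811 CPM in the Ncr1cre Myc fl/fl replicates of the same numbers. Replicates 1 and 2 of the Myc-deficient group were above all controls, and replicate 4 was among them. The log2 fold change was 0.20 ± 0.15 (SE), with an edgeR adjusted p of 0.507. Klrd1, the shared CD94 chain, measured 598, 523 and 576 CPM in the controls and 641, 701 and 578 CPM in the Myc-deficient libraries. It had the same layout, with replicate 4 inside the control range, and its log2 fold change was 0.18 ± 0.14 (SE, edgeR adjusted p = 0.527). Single libraries moved both values: without the block and Ncr1cre Myc fl/fl replicate 4 they were 0.35 for Klrc1 and 0.26 for Klrd1, without the block and Ncr1cre Myc fl/fl replicate 2 they were 0.12 and 0.11, and without replicate 2 of both genotypes they were 0.05 and 0.06.

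Klrc2, which encodes the activating chain NKG2C, measured 633, 577 and 541 CPM in the controls and 529, 593 and 388 CPM in the Myc-deficient libraries. The groups overlapped through Ncr1cre Myc fl/fl replicate 2, and the log2 fold change was −0.23 ± 0.15 (SE, edgeR adjusted p = 0.396). Klrc3, the rarest of the NKG2 genes, lay between 24.2 and 26.1 CPM in the controls and at 28.3, 25.7 and 20.97 CPM in the Myc-deficient libraries, with a log2 fold change of −0.02 ± 0.18 (SE, edgeR adjusted p = 0.964). Its leading transcript, Klrc3-203, is annotated as nonsense-mediated decay and not as protein-coding. It held 55.8% to 63.4% of the Klrc3 counts in the controls and 61.8% to 70.2% in the Myc-deficient libraries. Summed over Klrc1, Klrc2 and Klrc3, a value that does not depend on how reads were divided among them, the level was 1479 ± 124 CPM (mean and SD, n = 3) in the controls and 1532 ± 276 CPM in the Myc-deficient libraries. These sums differed by less than their spread (log2 ratio 0.05, exact two-sided permutation test, p = 0.80, where 0.10 is the smallest p that 3 against 3 libraries allow).

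The TPM of each chain, summed over all transcripts of its gene, was also set against that of CD94 within each library. The TPM ratio of Klrc2 to Klrd1 was 0.369, 0.362 and 0.310 in the controls and 0.288, 0.287 and 0.234 in the Myc-deficient libraries. Every Myc-deficient ratio was below every control ratio, with a log2 difference of −0.36. The Klrc2 value includes Klrc2-206, a transcript annotated as a retained intron. It held 25.16%, 24.79% and 24.78% of Klrc2 TPM in the controls and 17.42%, 21.02% and 18.61% in the Myc-deficient libraries. The separation is therefore not shown for the other Klrc2 transcripts, whose ratio to Klrd1 was not tested. The ratio of Klrc1 to Klrd1 ran from 0.685 to 0.716 in the controls and from 0.657 to 0.776 in the Myc-deficient libraries, and these ranges overlapped. The ratio of Klrk1 to Klrd1 was 1.81, 1.81 and 1.69 in the controls and 1.53, 1.59 and 1.45 in the Myc-deficient libraries, again without overlap and with a log2 difference of −0.22. For Klrc2 and Klrk1 the exact permutation p was 0.10, the smallest possible, and 0.30 when adjusted over the 6 ratios tested. The ratios of Klrc3, Klrb1c and Klrg1 to Klrd1 overlapped between genotypes, with adjusted exact permutation p-values of 0.40, 0.60 and 0.60.

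**Figure D3:**
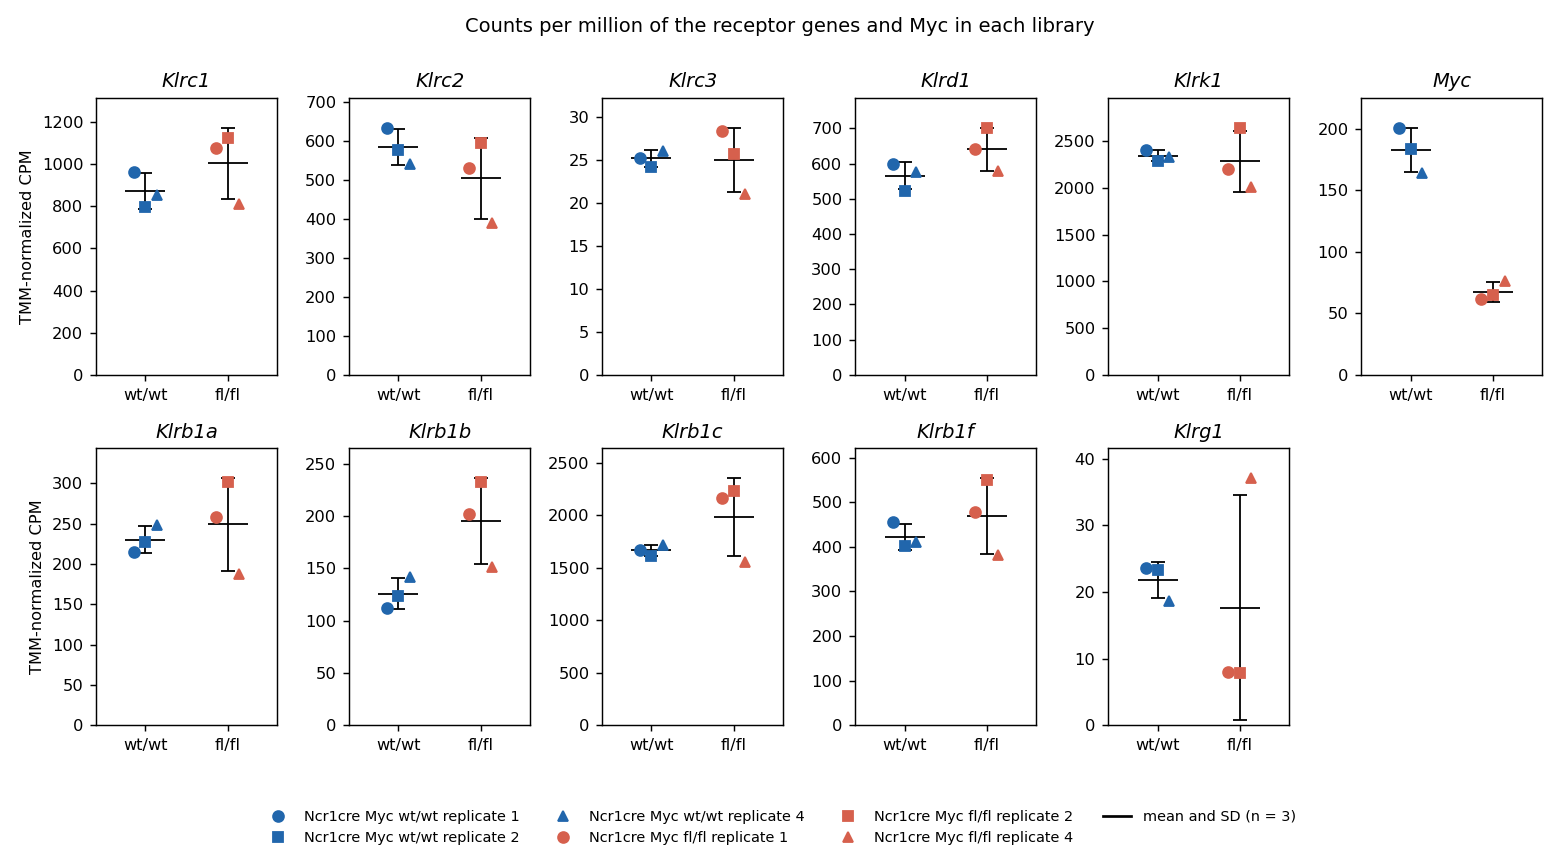
CPM of the 10 receptor genes and Myc in each library, with the mean and SD of the 3 libraries of each genotype in black and axes that start at 0. Myc and Klrb1b have genotypes that do not overlap, and the triangle of Ncr1cre Myc fl/fl replicate 4 is the lowest red symbol for every receptor gene but Klrg1, where it is the highest.

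The counts of Klrc2 fell mainly on a pair of transcripts. The transcript with the most counts, Klrc2-205, encodes a protein of 206 codons. The next by counts, Klrc2-206, is annotated as a retained intron and keeps the bases after exon 2 that are removed from the coding transcripts. The 48 bases across the end of exon 2 show this, with the 24 bases that follow exon 2 in capitals, exon 3 in the first and the intron in the second.
Klrc2-205: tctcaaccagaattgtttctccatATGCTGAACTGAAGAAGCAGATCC
Klrc2-206: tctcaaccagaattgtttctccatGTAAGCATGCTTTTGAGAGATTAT
Both begin in exon 2 at chr6:129659978-129660001 on the minus strand. The capitals lie at chr6:129659356-129659379 in exon 3 for Klrc2-205, and the retained stretch lies inside chr6:129659954-129660001. By TPM, which corrects for length, the order differed. The shorter Klrc2-204, with 238 codons, held 33.2%, 17.4% and 19.0% of Klrc2 TPM in the controls and 23.4%, 23.4% and 25.9% in the Myc-deficient libraries. It was above Klrc2-206 in every Myc-deficient library and in control replicate 1, and below it in control replicates 2 and 4.

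The share of Klrc2 counts on Klrc2-205 was 45.5%, 52.1% and 53.2% in the controls and 60.4%, 57.1% and 58.3% in the Myc-deficient libraries. All Myc-deficient libraries were above all controls, by 8.38 percentage points on average, or by 5.10 points without replicate 1 and 5.27 points as a share of TPM. The exact permutation p was 0.10 and became 0.45 when adjusted over the 9 members with more than 1 transcript. The share on the retained-intron transcript went the other way, with 41.7%, 37.3% and 37.3% in the controls and 27.8%, 32.6% and 30.1% in the Myc-deficient libraries. This split was looked at after the values had been seen and is given without a test. In CPM, the retained-intron counts of Klrc2 were 264, 215 and 202 in the controls and 147, 193 and 117 in the Myc-deficient libraries, whereas the other Klrc2 transcripts had means of 357 ± 15.2 and 351 ± 69.5 CPM (SD, n = 3). The other transcripts measured 369, 361 and 340 CPM in the controls and 382, 399.5 and 271 CPM in the Myc-deficient libraries, so that replicates 1 and 2 were above and replicate 4 below all controls. The log2 fold change of all Klrc2 counts, which was not called, ran from −0.36 to −0.05 with libraries left out.

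Klrk1 showed the same direction. Its retained-intron transcripts held 20.6%, 19.2% and 22.4% of its counts in the controls and 15.3%, 18.1% and 17.5% in the Myc-deficient libraries, without overlap. Klrd1, by contrast, held 1.88% to 4.25% and 2.08% to 2.26% of its counts on such a transcript, with overlap. Of 3548 tested genes with at least 10 retained-intron counts in every library, 9.5% had a lower share in every Ncr1cre Myc fl/fl than in every Ncr1cre Myc wt/wt library, as Klrc2 and Klrk1 did among the 3 members with so many counts. Over all genes, retained-intron transcripts held 5.33% to 5.38% of the counts in the controls and 4.99%, 5.08% and 5.56% in Myc-deficient replicates 1, 2 and 4. Retained-intron transcripts share exons with the coding ones, so the division between them rests on the model of the quantifier.

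**Figure D4:**
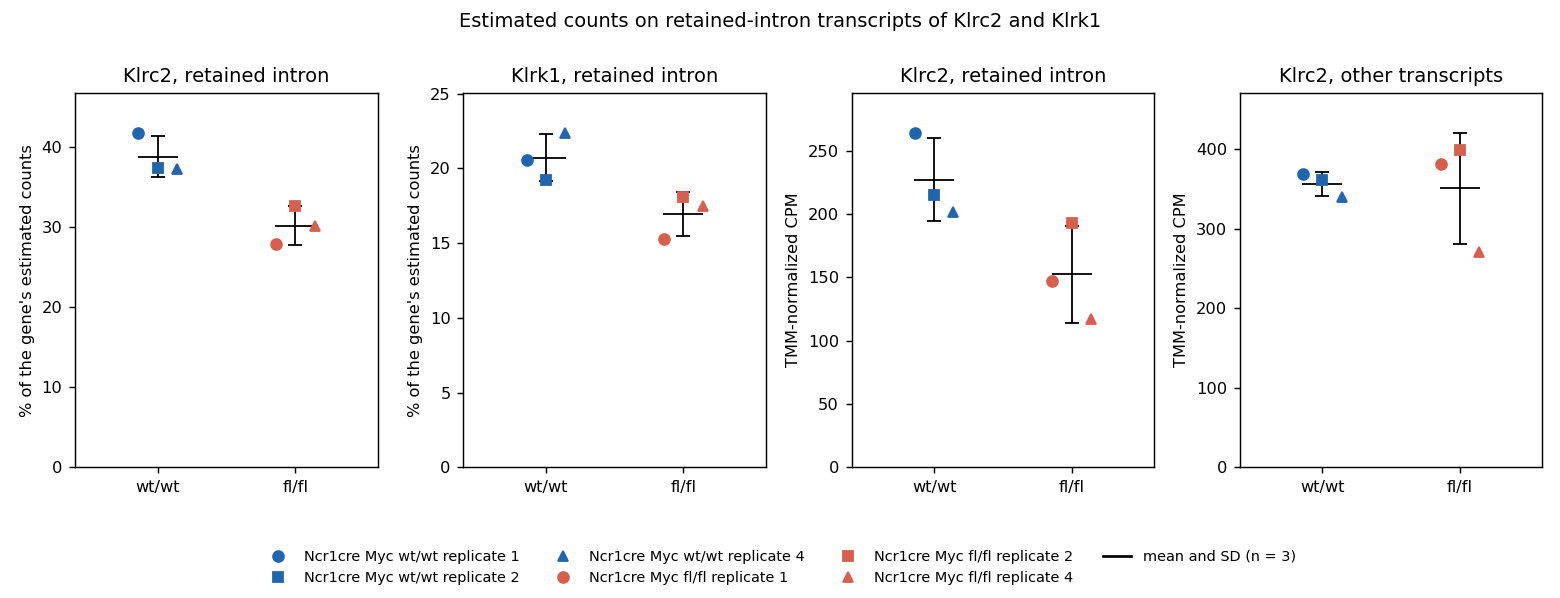
Share of the estimated counts of Klrc2 and Klrk1 on retained-intron transcripts in percent (the left pair of panels) and CPM of Klrc2 on the retained-intron and on all other transcripts (the right pair), for each library with mean and SD (n = 3). Both shares are lower in every Ncr1cre Myc fl/fl library, while the other Klrc2 transcripts overlap between genotypes (357 and 351 CPM on average).

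Klrk1, which encodes NKG2D, was the most abundant member and had the log2 fold change nearest to 0 after Klrc3. It measured 2410, 2293 and 2328 CPM in the controls and 2200, 2643 and 2009 CPM in the Myc-deficient libraries. The Myc-deficient libraries lay on both sides of the narrow control range, and the log2 fold change was −0.05 ± 0.14 (SE, edgeR adjusted p = 0.903). Mouse NKG2D exists as a long and a short form that differ in their start codon. The start codons are in capitals below, first in Klrk1-201, whose long form begins 13 codons earlier in exon 1 and continues into exon 2, and then in Klrk1-205, which begins at the inner start codon in exon 2.
Klrk1-201: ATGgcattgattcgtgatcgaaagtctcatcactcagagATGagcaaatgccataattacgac
Klrk1-205: ATGagcaaatgccataattacgac
The long start lies at chr6:129622537-129622573 and the shared stretch at chr6:129621217-129621240 on the minus strand. Klrk1-201 took 25.1%, 34.4% and 36.2% of the coding Klrk1 counts in the controls and 33.7%, 32.0% and 28.6% in the Myc-deficient libraries. Counts grow with transcript length, and Klrk1-205 is the longer transcript. As a share of coding TPM, Klrk1-201 took 35.3%, 52.4% and 55.0% in the controls and 50.2%, 48.9% and 43.3% in the Myc-deficient libraries. By either measure the lowest share was that of the shallow control library, and the genotypes overlapped (exact permutation p = 0.90 for the counts). Klrk1-205 also holds 18 bases, or 6 codons, at the start of exon 5 that Klrk1-202, the other short form, lacks. They are in capitals here.
Klrk1-205: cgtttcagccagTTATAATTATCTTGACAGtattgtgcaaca
Klrk1-202: cgtttcagccagtattgtgcaaca
The first 12 bases of each end exon 4 at chr6:129616669-129616680, and the bases of exon 5 lie at chr6:129616321-129616350 in Klrk1-205 and chr6:129616321-129616332 in Klrk1-202. The share of all Klrk1 counts on Klrk1-205 was 43.3%, 45.8% and 43.4% in the controls and 46.9%, 47.2% and 47.9% in the Myc-deficient libraries, 3.15 percentage points higher on average, or 1.98 points as a share of TPM, and without overlap (exact permutation p = 0.10, adjusted over the 9 members p = 0.45).

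Klrb1b, which encodes the inhibitory receptor NKR-P1B, had the highest log2 fold change among the members but did not pass the threshold. It measured 112, 123 and 142 CPM in the controls and 202, 233 and 151 CPM in the Myc-deficient libraries. All Myc-deficient libraries were above all controls, with replicate 4 just above them. The log2 fold change was 0.62 ± 0.18 (SE, 95% interval 0.22 to 1.02), and the edgeR adjusted p was 0.0645. Over the alternatives the adjusted p ran from 0.0164 to 0.240, and it never passed 0.01.

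Klrb1c, the gene of the activating receptor NK1.1 by which the cells were sorted, measured 1673, 1608 and 1713 CPM in the controls and 2162, 2230 and 1555 CPM in the Myc-deficient libraries. Replicates 1 and 2 were above and replicate 4 below all controls, and the log2 fold change was 0.23 ± 0.16 (SE, edgeR adjusted p = 0.434). It was 0.41 without the block and Ncr1cre Myc fl/fl replicate 4, and 0.12 without replicate 2 of both genotypes. Since the gate selected on this protein, its level describes sorted cells only. Klrb1a and Klrb1f, which encode further activating receptors, had log2 fold changes of 0.09 and 0.14 and adjusted p-values of 0.826 and 0.658. Klrb1a measured between 215 and 248 CPM in the controls and 258, 302 and 188 CPM in the Myc-deficient libraries, and Klrb1f between 401 and 456 CPM and at 478, 549 and 381 CPM. In both, Myc-deficient replicate 4 was the lowest of all libraries. The sum over the 4 NKR-P1 genes was 2443 ± 77.3 CPM (mean and SD, n = 3) in the controls and 2896 ± 549 CPM in the Myc-deficient libraries (exact permutation p = 0.40). Klrb1b and Klrb1c both overlap Gm44511, a gene annotated as protein-coding on the same strand, which had at most 7.81 CPM in any library.

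Klrg1, the marker of late maturation, divided the Myc-deficient libraries. It measured 23.5, 23.3 and 18.6 CPM in the controls and 7.93, 7.85 and 37.1 CPM in the Myc-deficient libraries, from 181, 1312 and 1219 counts and 466, 429 and 2215 counts. Replicates 1 and 2 of the Ncr1cre Myc fl/fl group were below every control, and replicate 4 was above every control. The log2 fold change was −0.73 ± 0.45 (SE, 95% interval −1.75 to 0.28, edgeR adjusted p = 0.389), and −0.30 without the replicate block (adjusted p = 0.781). It was −0.27 without replicate 1 and −0.23 without replicate 2 of both genotypes. Without replicate 4 of both genotypes, Klrg1 was called lower at −1.59 on the log2 scale (edgeR adjusted p = 0.00375), in a fit that called 1.78% of all genes. Without only the Ncr1cre Myc fl/fl replicate 4 and without the replicate block, the values were −1.45 and 0.00644, with 1.18% of all genes called. The call thus rested on leaving out a library, and no label sets that library apart.

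Other genes that mark mature or cytotoxic NK cells did not all move with Klrg1. Itgam, which encodes CD11b and was excluded by the gate, measured 44.6, 45.6 and 34.6 CPM in the controls and 41.7, 42.3 and 46.9 CPM in the Myc-deficient libraries. Of the 8 genes in the mature NK cell list, which includes Klrg1, 2 were called and both were lower: S1pr5, an egress receptor, with a log2 fold change of −1.18 (adjusted p = 0.0054), and Cma1, a protease gene, with −1.84 (adjusted p = 0.00253). S1pr5 measured 50.7, 43.0 and 20.8 CPM in the controls and 18.3, 21.7 and 9.68 CPM in the Myc-deficient libraries, with overlap through control replicate 4. Zeb2, a transcription factor, had −0.20 (adjusted p = 0.450). The summed level of the list was higher in every Myc-deficient library, with 343 to 481 CPM in the controls and 672, 552 and 1736 CPM in replicates 1, 2 and 4, of which Gzmb made up the largest part in each Myc-deficient library. Cx3cr1, a chemokine receptor, measured 2.50 to 2.67 and 3.62 to 6.33 CPM with a log2 fold change of 0.87 (adjusted p = 0.116), and Prdm1, a transcription factor, 41.1 to 57.2 and 59.2 to 104 CPM with 0.51 (adjusted p = 0.235), and neither was called. S1pr5 and Cma1 were lowest in Ncr1cre Myc fl/fl replicate 4, the library in which Klrg1 was highest. Gzmb, a cytotoxic granule protease, measured 166 to 212 CPM in the controls and 472, 358 and 1488 CPM in the Myc-deficient libraries. S1pr5, Cma1, Zeb2, Cx3cr1, Prdm1 and Gzmb are named after their values were seen, and the part of such differences in the Klrg1 values was not tested.

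Ncr1cre Myc fl/fl replicate 4 was the lowest of its group for 9 of the 10 members, with Klrg1 as the exception, and the lowest of all 6 libraries for 6 of them. Over all tested genes it was the lowest of its group for 34.3% and the lowest of all libraries for 16.3%. The median deviation of the members from the control mean was 0.17 and 0.34 on the log2 scale in Ncr1cre Myc fl/fl replicates 1 and 2 and −0.13 in replicate 4, and for all genes it was between −0.01 and 0.01 in these libraries. In replicates 1 and 2 alike, 6 members were above every control library, as were 20.8% of all tested genes. The members share a library and in part their reads, so these counts are not independent observations.

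**Figure D5:**
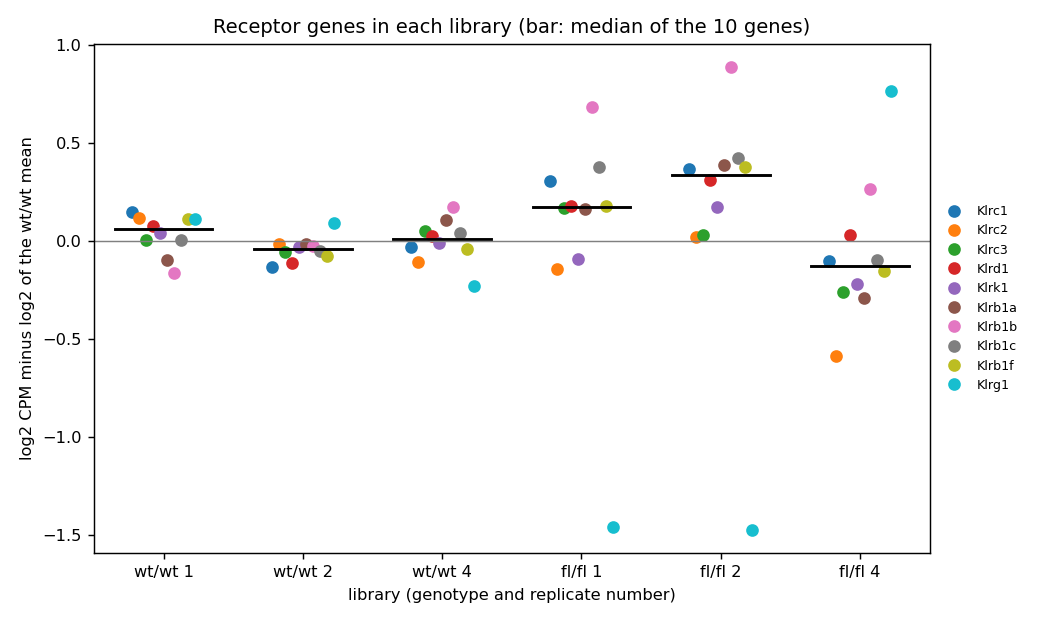
Log2 CPM of the 10 receptor genes in each library relative to the Ncr1cre Myc wt/wt mean, with 1 coloured point per gene and a black bar at the median of the 10 genes. The bars lie at 0.17 and 0.34 in Ncr1cre Myc fl/fl replicates 1 and 2 and at −0.13 in replicate 4, and Klrg1 is the point at the bottom of the first pair and at the top of replicate 4.

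The genes that act with these receptors were read in the same fit, as 5 lists with 53 genes, of which 48 were tested. None was called at the threshold by edgeR or limma-trend, and DESeq2 called 7 of 48. An unadjusted p below 0.05 was found for 13 of 48. The shares over all genes at these limits are those given above for the members. With the adjusted p relaxed to 0.05 and any fold change allowed there were 6, with 5 higher and 1 lower, or 6 of 48 against 7.83% of all tested genes. The median log2 fold changes were 0.03 for the ligands, 0.12 for the adaptors and kinases, 0.16 for the inhibitory phosphatases, 0.12 for other lectin-like genes of the complex and 0.19 for the transcription factors, beside 0.01 for all genes.

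Among the 11 tested ligand genes, 3 had an adjusted p below 0.05 and none passed the threshold. H2-T23, which encodes Qa-1, the ligand of the NKG2 and CD94 pairs, measured 341, 464 and 510 CPM in the controls and 590, 693 and 743 CPM in the Myc-deficient libraries. The genotypes did not overlap, and the log2 fold change was 0.64 ± 0.13 (SE, edgeR adjusted p = 0.0212). Clec2i, which encodes the Clr-g ligand of NKR-P1 receptors, was lower in all Myc-deficient libraries, with 119, 82.2 and 71.2 CPM against 55.6, 42.6 and 58.6 CPM and a log2 fold change of −0.77 ± 0.17 (SE, edgeR adjusted p = 0.0279). Cdh1, the E-cadherin that KLRG1 binds, was weakly expressed, with 5, 37 and 71 counts or 0.650, 0.656 and 1.08 CPM in the controls, and measured 4.48, 4.23 and 2.93 CPM in the Myc-deficient libraries. Its log2 fold change was 2.22 ± 0.40 (SE, edgeR adjusted p = 0.0112). Clec2d, the ligand of NKR-P1B, had a log2 fold change of 0.01 and at most 8.05 CPM, while of the NKG2D ligand genes Ulbp1 measured 16.9 to 21.6 CPM in the controls and 12.1, 12.8 and 21.2 CPM in the Myc-deficient libraries (log2 fold change −0.33, adjusted p = 0.471). H60b and H60c had at most 0.779 CPM, and Raet1d and Raet1e were below the filter.

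On the signalling side, the adaptor genes of NKG2D gave no call. Hcst, which encodes DAP10, had a log2 fold change of −0.44 (adjusted p = 0.259), with 296 CPM in the shallow control library and 130 to 156 CPM in all others. Tyrobp, which encodes DAP12, had a log2 fold change of −0.01 (adjusted p = 0.978). Plcg1, a phospholipase of the activating cascade, was at 4.41 to 4.68 CPM in the controls and 8.25, 8.01 and 13.3 CPM in the Myc-deficient libraries, and its log2 fold change of 1.10 ± 0.26 (SE) had an adjusted p of 0.0328. Pik3cd and Inpp5d, a lipid kinase and the phosphatase that removes its product, had log2 fold changes of 0.50 and 0.48 and adjusted p-values of 0.0554 and 0.0599. Ptpn11, the SHP-2 phosphatase that ITIMs recruit, had −0.29 (adjusted p = 0.276).

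Of the other lectin-like genes of the complex, Cd69, an early activation marker, measured 324, 298 and 390 CPM in the controls and 447, 562 and 652 CPM in the Myc-deficient libraries. Its log2 fold change was 0.71 ± 0.14 (SE, edgeR adjusted p = 0.0177). Klre1, which encodes an NK receptor chain, had −0.43 (adjusted p = 0.112), and its 853 CPM in the shallow control library stood above the 410 to 588 CPM of all others. Among 12 transcription factors, Tox, which takes part in early NK cell development, had a log2 fold change of 0.51 ± 0.13 (SE, edgeR adjusted p = 0.0426) and measured 127 to 140 CPM against 182 to 206 CPM. Id2, which is required for the NK lineage, had 0.45 (adjusted p = 0.0765). Eomes and Tbx21, the T-box factors of NK cells, had log2 fold changes of 0.04 and −0.05.

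Because Myc binds the E-box CACGTG, the promoters of the members were searched for these 6 letters, which read the same on both strands. The RefSeq table (GRCm38.p6) gave windows from 250 bases before to 50 bases after the gene start for 8 of the 10 members. The letters occurred in Klrc2 and Klrc3, and in 7.15% of all 32851 windows. The 50 bases around them are shown with the E-box in capitals, since these were the only members with a match.
Klrc2 promoter: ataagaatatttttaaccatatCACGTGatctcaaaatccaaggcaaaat
Klrc3 promoter: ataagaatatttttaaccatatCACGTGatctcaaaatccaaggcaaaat
They lie at chr6:129660720-129660769 and chr6:129643452-129643501 on the minus strand, and 0 of the 50 bases differ, so the pair is a duplicated stretch rather than separate matches. In Klrc3 the E-box begins 191 bases before the gene start. Neither gene was called, with log2 fold changes of −0.23 and −0.02.

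The sorted cells carried NK cell transcripts in every library, since the summed level of the 8 NK cell markers, which include Klrb1c, was 12000 to 12650 CPM in the controls and 14180 to 15320 CPM in the Myc-deficient libraries. Cd27 measured 225 to 252 and 234 to 278 CPM, and Cd3e measured 38.1 to 110 and 69.0 to 107 CPM. Transcripts of other BM cells were higher in the Myc-deficient libraries: the summed basophil and mast cell markers were at 15.1 to 18.5 CPM in the controls and 122 to 334 CPM in the Myc-deficient libraries with 8 of 8 genes called, neutrophil markers at 82.4 to 135 and 511 to 862 CPM with 3 of 8 called, monocyte markers at 1658 to 1865 and 2085 to 2370 CPM with 4 of 5 called, and erythroid markers at 45.0 to 281 and 552 to 1162 CPM with 2 of 6 called. The summed ILC1 markers were 262 to 398 and 402 to 497 CPM, ILC2 markers 129 to 146 and 162 to 171 CPM, T cell markers 256 to 513 and 276 to 364 CPM, and B cell markers 4.55 to 8.64 and 11.5 to 15.2 CPM, with 0 genes called in these lists. The monocyte sum was mostly Ccr2, the gene of that list that was not called, with 1417 to 1724 and 1670 to 2019 CPM. Of its called genes, Ly6c2 measured 128 to 229 and 232 to 447 CPM, and Csf1r, Lyz2 and F13a1 had at most 8.53 CPM in the controls and 9.82 to 28.0 CPM in the Myc-deficient libraries. No marker was at 0 in all libraries. Ptprc, which encodes the leukocyte antigen CD45 and is in none of the lists, measured 4733, 3849 and 4006 CPM in the controls and 2079, 2403 and 1288 CPM in the Myc-deficient libraries, and it was called lower at a log2 fold change of −1.17 ± 0.19 (SE, edgeR adjusted p = 0.00708). Ptprc and the single monocyte genes are named after their values were seen. The part of these transcripts in the values of Klrb1b, Cdh1 and the other genes above was not tested.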

How the data were processed

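The authors quantified single-end RNA-seq reads (SMART-Seq v4, a kit that does not mark strand) per transcript and deposited, for each library, estimated counts, TPM values and effective lengths. The submitters' processing notes name Salmon and GRCh38, whereas the deposited transcript identifiers are those of mouse. Estimated counts and TPM were summed by gene symbol through GENCODE M21 (GRCm38), in which 100239 of 100583 transcripts were found, and the counts were rounded; unmatched transcripts held at most 0.169% of counts. Genes were kept by filterByExpr, scaled by TMM and tested with the quasi-likelihood test of edgeR 4.0.16 (R 4.3.3), with replicate numbers as blocks because the study calls its analyses paired, with Benjamini-Hochberg adjustment over 15474 genes. Sums, ratios (log2 of TPM with a pseudocount of 0.1) and transcript shares were compared by exact two-sided permutation tests. The code of the fits was run on simulated counts without replicate effects, with planted changes larger than those of the members. That run cannot show whether changes of the members' size would be found. DESeq2 1.42.0 and limma 3.58.1 were alternatives. The members and the lists of genes were chosen with earlier results of these data known. The text names all members, Myc, the called genes of each receptor pathway list or else its 2 with the smallest adjusted p, and the genes of the sort gate (of which 1 is not reported here), while a few genes beyond this rule (ligands, adaptors and T-box factors among them) were chosen after their values were seen. Precision is limited by 3 libraries per genotype and by the shallow first control library.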

Additional observations from a re-analysis of the deposited data

How the results depend on the processing

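The replicate numbers were not shown to pair the mice, since the deviations of same-numbered libraries correlated at −0.012, −0.020 and 0.051 across genes. Without the replicate block, 0 members, 1 list gene (Cdh1) and 2.50% of all genes passed the threshold, and the median log2 fold change of the members was 0.13. With pairs of libraries or single libraries left out, the number of members called ran from 0 to 1, which was Klrg1 without replicate 4 (log2 fold change −1.59) or without the block and Ncr1cre Myc fl/fl replicate 4 (−1.45), and the number of list genes called ran from 0 to 2, beside 0.157% to 1.78% of all genes. Klrg1 was −0.30 without the block and reversed to 0.05 and 0.053 without the block and Ncr1cre Myc fl/fl replicate 1 or 2. The list genes called numbered 7 with DESeq2, 4 with no filter, 1 with RLE normalization and 6 at an adjusted p below 0.05, beside 7.71%, 4.36%, 2.40% and 7.83% of all genes; the cause was not tested. The median of the members ran from −0.04 to 0.27 with libraries left out and from 0.11 to 0.14 otherwise. Signs turned for 4 members that were not called under any alternative: Klrc3 (from −0.114 to 0.111, with 0.107 and 0.019 among them, with libraries left out, and 0.002 with at least 10 counts in every library), Klrk1 (from −0.162 to 0.057, with 0.018 among them), Klrb1a (from −0.061 to 0.317, with −0.045 among them) and Klrb1f (from −0.011 to 0.293, with 0.242 among them). With libraries left out, Klrc1 ran from 0.05 to 0.35, Klrc2 from −0.36 to −0.05, Klrd1 from 0.06 to 0.26, Klrb1b from 0.48 to 0.86 and Klrb1c from 0.12 to 0.41. The summed Klrc genes ran from −0.093 to 0.162 on the log2 scale and, as a collapsed row, gave 0.04 with and 0.05 without the replicate block, and the summed Klrb1 genes ran from 0.11 to 0.41. The log2 ratio difference to Klrd1 ran from −0.001 to 0.093 for Klrc1 and from −0.086 to 0.215 for Klrb1c with a replicate left out. In percentage points, the leading transcript share ran from −0.548 to 0.499 for Klrc1, from −0.21 to 3.63 for Klrd1, from 5.10 to 10.03 for Klrc2, from 2.48 to 4.04 for Klrk1, from 2.14 to 10.4 for Klrb1a, from 2.27 to 6.49 for Klrc3, from −0.75 to 7.11 for Klrb1b and from −4.28 to 3.32 for Klrb1c, and as a share of TPM it was 0.68 for Klrb1c and −0.33 for Klrb1f. The Klrc2 retained-intron share, an alternative chosen after seeing the data, was lower by 5.97 to 10.5 points with a replicate left out and by 5.90 points as a share of TPM. Depth limits Klrg1 and Klrc3 most, with 181 and 194 counts in the shallow control library.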
